A study of Mus musculus with 1187 samples.

Results

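Brain endothelium carries receptors and ligands first described in the steering of axons, and 6 of these genes are described here: the semaphorins Sema3g, Sema3c and Sema6a, the plexin Plxnd1, the netrin-family receptor Unc5b and the roundabout receptor Robo4. They were taken by name, 6 rows of the 46517 genes in the table, and all 6 were read. The study set Pdgfb ret/+ mice (590 labelled cells) beside Pdgfb ret/ret mice (597 labelled cells), in which PDGF-B lacks its retention motif and pericytes are scarce. Both groups were adult (3 months old by the design text), C57BL/6, and carried the Cldn5-GFP and Cspg4-DsRed reporters, and single brain cells with the green but not the red signal were sorted into plates for Smart-seq2, a full-length method without molecular identifiers. No label names an animal or its sex.

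Each column bears the name of a plate and a well while the labels carry a running number, so no cell could be given a genotype. The 1187 cells are therefore described as 1 pooled sample, with plates 521, 522, 523 and 524 (300, 290, 285 and 312 cells) shown apart. Plates 521 and 522 together hold as many columns as there are ret/+ labels (590), and plates 523 and 524 as many as ret/ret labels (597). Equal numbers place no cell, so no genotype was assigned from them, and plate, genotype and animal cannot be told apart. With 1 sample there is no test, and each statement below rests on size and on how many plates share a direction.

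Semaphorins are secreted (Sema3) or membrane-bound (Sema6) ligands. Sema3 proteins usually bind a neuropilin that pairs with a plexin, and the plexin passes on the signal, often as collapse of the cytoskeleton and retreat from the ligand. Plxnd1 is the plexin of vascular endothelium, known for holding sprouts back along somites, and binds Sema3e directly. Unc5b is a receptor for netrin-1 and for FLRT proteins, found on arteries and on sprouting tip cells, where it restrains branching. Robo4, largely limited to endothelium, lacks much of the slit-binding part of other Robo receptors, is known for keeping vessels tight, and can bind Unc5b.

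Cells had between 100779 and 584112 reads (median 360947), and the median depth of a plate lay between 349606 and 373444. All 7 pan-endothelial markers were read, led by the tight junction gene Cldn5. Of lists for 11 other cell types, astrocyte markers summed to the most, 229.5 CPM (reads scaled to a total of 1000000) over all cells. Gja1 alone gave 185.3 CPM of that sum, and the median of the 6 astrocyte markers was 12.9 CPM. On plates 521 to 524 the sum of the 7 pericyte markers was 13.9, 18.6, 134.5 and 71.0 CPM, led by Vtn on plate 521 and by Rgs5 on the others, with Kcnj8 at 0 on plates 522 and 523.

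Levels of different genes are compared per kilobase of exon, all on the scale of CPM per kilobase. Robo4 was the highest at 149, followed by Sema3c at 59.9, Sema6a at 23.4, Plxnd1 at 15.0, Sema3g at 14.0 and Unc5b at 10.6. Over the 4 plates Robo4 ranged from 107 to 184, above the 23.7 to 95.2 of Sema3c. The ranges of Sema3c and Sema6a (19.7 to 28.0) overlapped. Plxnd1 (11.6 to 18.9), Sema3g (10.4 to 17.8) and Unc5b (6.36 to 15.8) overlapped one another, and all 3 lay below Sema6a.

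The genes also differed in how many cells carried them. With each cell thinned to 100000 reads, Robo4 was read in 90.1% of cells (95% Clopper-Pearson interval 88.3 to 91.8%). Sema6a was read in 66.8%, Sema3c in 60.7% and Plxnd1 in 55.3%, but Sema3g in 25.6% and Unc5b in 24.1%. The 10% of cells with the most reads of a gene held 81.8% of all Unc5b reads and 77.2% of all Sema3g reads, against 27.3% for Robo4. Such intervals, and the Poisson intervals in the tables behind the levels, cover counting error only, since reads of a well are not independent molecules. The median cell had reads of 3 of the 6 genes, 30 cells had all 6, and 2 cells had none.

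To place these genes on the vessel tree, cells were scored with lists of 15 arterial, 9 capillary, 12 venous and 13 tip markers, none of them a guidance gene. A cell joined the class of its highest score where that was above 0 and led the next by 0.25 or more. This gave 141 arterial, 373 capillary, 173 venous and 98 tip cells, and 402 cells between classes, of which 398 led by less than 0.25. These classes are ranges of a score, named for their markers. The mix differed between plates: arterial cells numbered 28, 34, 39 and 40 on plates 521 to 524, capillary cells 19, 53, 150 and 151, venous cells 82, 57, 16 and 18, and tip cells 59, 31, 3 and 5. A ratio within a plate is given where both classes have 10 or more cells there, so tip against capillary has values on plates 521 and 522 only. Ratios are log2 of CPM with 1 CPM added to each side.

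**Figure D1:**
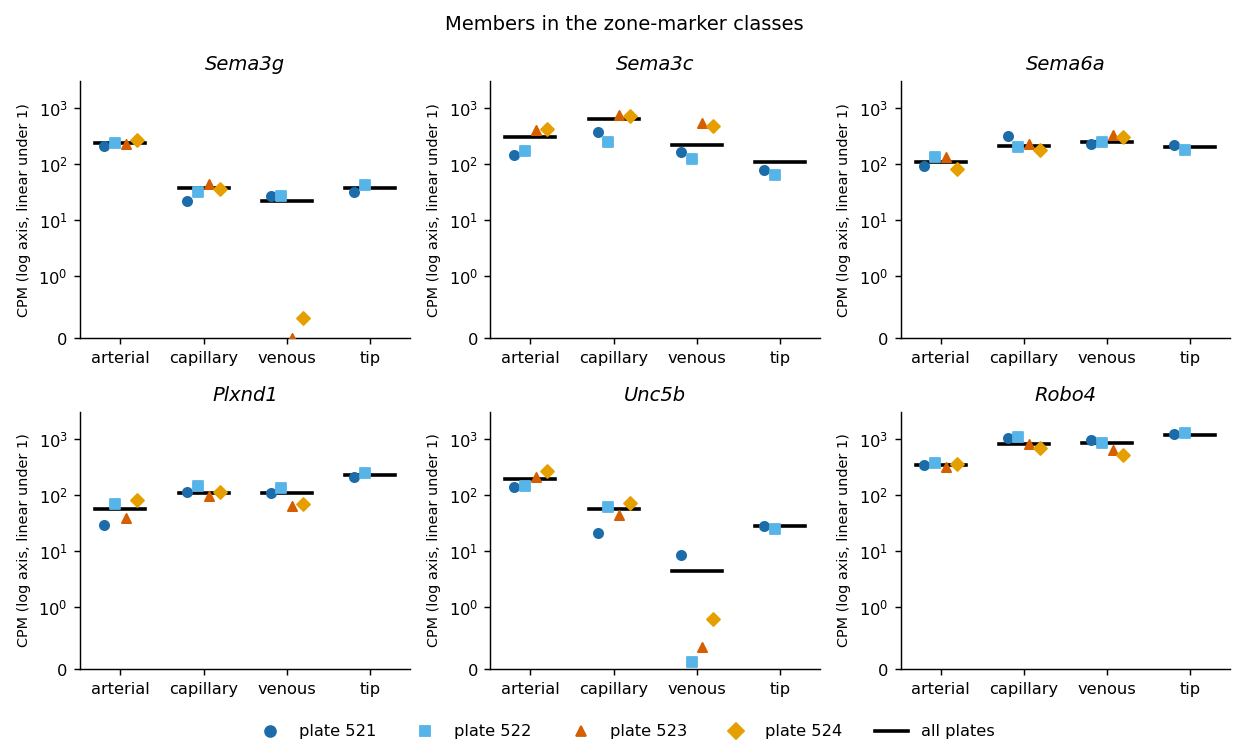
CPM of each gene (log axis, linear under 1) in the 4 zone-marker classes, with 1 point per plate of 10 or more cells and a bar for all plates. Sema3g and Unc5b stand highest in the arterial class on each plate, Robo4 stands lowest there, and Sema3c of plates 523 and 524 lies above that of plates 521 and 522 in the arterial, capillary and venous classes.

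Sema3g, a secreted semaphorin that signals through neuropilins (GRCm38 chromosome 14, 31217860 to 31230352, plus strand), was the arterial ligand of the set. In the arterial class it stood at 208, 235, 224 and 263 CPM on plates 521 to 524. Capillary cells had 21.7, 31.6, 43.1 and 36.0 CPM, and venous cells 26.8, 27.3, 0 and 0.32 CPM. Arterial and non-arterial plate values did not overlap. Among arterial cells 73.0% had a read, among capillary cells 16.6%, among venous cells 12.1% and among tip cells 18.4%. The log2 ratio of arterial to capillary was 2.61, from 2.35 to 3.20 on the 4 plates, and of arterial to venous 3.38. The within-plate arterial to venous ratios were 2.91, 3.06, 7.81 and 7.64; the last 2 rest on the added 1 CPM, because venous cells had 0 reads on plate 523 (which allows up to 0.537 CPM) and 2 reads on plate 524. Depending on how classes were drawn and plates weighted, the arterial to venous ratio lay between 2.24 and 5.36. Venous against capillary was -0.77 pooled but 0.29 on plate 521, and 0.40 with Leiden clusters in place of scores.

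Unc5b, the netrin-family receptor (chromosome 10, 60762593 to 60831581, minus strand), had the widest range between zones. Its arterial level was 137, 144, 207 and 259.6 CPM on the 4 plates, its capillary level 20.7, 59.8, 43.7 and 70.6 CPM, and its venous level 8.55, 0.11, 0.36 and 0.81 CPM. Arterial was above capillary and capillary above venous on every plate. A read was found in 61.7% of arterial, 21.4% of capillary, 20.4% of tip and 4.05% of venous cells. The pooled log2 ratio was 5.18 for arterial against venous, 1.79 for arterial against capillary and -3.39 for venous against capillary, each in 1 direction on 4 of 4 plates. Nearly all venous reads, 251, came from plate 521, against 2, 2 and 5 on the other plates, and without plate 521 the arterial to venous ratio was 7.33. With Leiden clusters in place of scores it was 3.07, and venous against capillary was -1.09. Gm19972, the single other gene annotated within Unc5b, lies in an intron and shares no exon base with it.

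Sema3g and Unc5b also went together cell by cell. Of the 304 cells with a Sema3g read, 51.0% had an Unc5b read, against 14.8% of the 883 cells without one. On plates 521 to 524 the shares were 43.4%, 50.0%, 58.2% and 52.9% with Sema3g, and 11.2%, 13.6%, 17.4% and 17.2% without. Within capillary cells alone they were 41.9% and 17.4%, and within arterial cells 66.0% and 50.0%. As a description over cells, which share plates and are not replicates, Spearman's rho between the pair lay between 0.37 and 0.39 on each plate. Among 9997 genes read in 10% or more of cells, the one most like Unc5b was Sema3g (mean rho 0.38), followed by Glul, the glutamine synthetase gene (0.36), the Notch target Hey1 (0.36), Mir8114 (0.35) and the arterial ephrin Efnb2 (0.34). For Sema3g they were Glul (0.46), the alkaline phosphatase Alpl (0.43), Mir8114 (0.43), the arterial kinase Bmx (0.43) and Teddm2 (0.41). Glul, Mir8114 and Teddm2 overlap on chromosome 1, so their reads may be of 1 gene, and Hey1 and Bmx are in the arterial marker list.

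The promoters of this arterial pair, and of Robo4, which had the opposite pattern, are shown for comparison. Each stretch is the 250 bases before the RefSeq start (GRCm38.p6), less any bases inside the GENCODE gene. The stretches of Sema3g (237 bases) and Robo4 (175 bases) therefore stop short of the RefSeq start. They lie at chr14:31217623-31217859 plus (Sema3g), chr10:60831582-60831831 minus (Unc5b) and chr9:37401722-37401896 plus (Robo4). Capitals mark GGAA or TTCC, the core bound by ETS factors on either strand.
Sema3g: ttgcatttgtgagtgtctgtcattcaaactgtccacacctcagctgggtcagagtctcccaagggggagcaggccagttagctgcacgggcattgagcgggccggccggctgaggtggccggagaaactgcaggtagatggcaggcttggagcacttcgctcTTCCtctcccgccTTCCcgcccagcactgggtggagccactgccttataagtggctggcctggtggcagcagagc
Unc5b: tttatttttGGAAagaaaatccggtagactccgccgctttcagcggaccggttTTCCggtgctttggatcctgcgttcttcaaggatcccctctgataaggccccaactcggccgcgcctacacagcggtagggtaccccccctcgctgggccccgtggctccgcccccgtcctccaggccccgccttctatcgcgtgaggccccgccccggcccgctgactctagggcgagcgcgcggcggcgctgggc
Robo4: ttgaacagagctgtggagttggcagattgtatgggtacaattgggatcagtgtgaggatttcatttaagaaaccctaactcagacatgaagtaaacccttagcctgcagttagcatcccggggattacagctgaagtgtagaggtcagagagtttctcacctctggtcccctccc

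Sema3g and Unc5b had 2 such cores each in 237 and 250 bases, and Robo4 none in 175. Over 32851 RefSeq promoters, stretches of the same length held at least 1 in 92.4%, 93.4% and 85.9%, with medians of 3, 3 and 2. At the lengths of Sema3g and Unc5b, 74.2% and 76.8% of promoters had 2 or more. The longer core TGGGAA (or TTCCCA), bound by the Notch partner RBPJ, was in none of the 3 stretches, against 20.6%, 21.6% and 15.9% of promoters. The SOX core ACAAT (or ATTGT) occurred in Robo4 only, at 2 places, and 3.63% of promoters had as many in 175 bases. TTCCCA contains TTCC, so those 2 searches overlap. Plxnd1, also lower in arterial than in capillary cells, had 5 GGAA or TTCC cores in 250 bases, not printed here. As many or more were in 18.0% of promoters. These are letter matches in 1 short window and say nothing of binding.

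Robo4 (chromosome 9, 37401897 to 37415115, plus strand) was lowest in arterial cells. The arterial level was 342, 375, 308 and 357 CPM on plates 521 to 524. Capillary cells had 1041, 1072, 797 and 685 CPM, and venous cells 948, 838, 622 and 513 CPM. No arterial value reached the lowest capillary or venous value. The log2 ratio of arterial to venous was -1.28 and of arterial to capillary -1.22, below 0 on 4 of 4 plates in both. A read was found in 73.0% of arterial cells, 93.0% of capillary and 94.8% of venous cells. Tip cells had the highest level, 1167.2 CPM, with 1216 and 1239 CPM on plates 521 and 522, and the tip to capillary ratio was 0.54 pooled but 0.22 and 0.21 within those plates. Venous against capillary was 0.06 pooled and below 0 on all 4 plates (mean -0.32). Plates 521 and 522, which held most venous cells, also had the higher Robo4 levels. The genes most like Robo4 over cells were Gm15270 (mean rho 0.29), the matricellular Ctgf (0.29), Ctla2a (0.28), Sparcl1 (0.27) and the capillary marker Slc7a5 (0.27). Gm15270 overlaps the Ctgf gene, Ccn2 in the annotation, on the other strand.

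Sema6a, a transmembrane semaphorin that signals through class A plexins (chromosome 18, 47235598 to 47368870, minus strand), followed Robo4 in being lower in arterial cells. Plates 521 to 524 had 90.0, 132, 131 and 79.9 CPM in arterial, 316, 200.0, 223 and 176 CPM in capillary, and 227, 242, 321 and 301 CPM in venous cells. The arterial to venous ratio was -1.19 and the arterial to capillary ratio -0.93, below 0 on 4 of 4 plates. Venous against capillary (0.27, above 0 on 3 of 4 plates) and tip against capillary (-0.04) stayed under 1.5-fold.

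Plxnd1, the semaphorin receptor (chromosome 6, 115954811 to 115995005, minus strand), was highest in tip cells. They had 208 and 241 CPM on plates 521 and 522, where capillary cells had 111 and 141 CPM. The ratio was 1.04 pooled, and 0.91 and 0.77 within those plates. A read was found in 81.6% of tip cells, 62.4% of venous, 52.5% of capillary and 44.7% of arterial cells. Arterial cells had 28.4, 68.4, 38.5 and 81.5 CPM on plates 521 to 524, and the ratio was -0.95 against capillary (4 of 4 plates) and -0.92 against venous (3 of 4 plates, with 0.23 on plate 524). The 3 erythroid markers, all of them read, summed to 63.4 CPM in tip cells and 3.87 CPM in capillary cells, and their part in the tip values was not tested.

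Sema3c, a secreted semaphorin that signals through neuropilins and plexins (chromosome 5, 17574281 to 17730268, plus strand), stood higher in capillary than in arterial and venous cells. Capillary cells had 371, 243, 737 and 705 CPM on plates 521 to 524, above the 142, 172, 409 and 419.7 CPM of arterial and the 165, 123, 527 and 478 CPM of venous cells of the same plate. Cells between classes had 195, 230.1, 691 and 781 CPM, below capillary cells on plates 521 to 523 and above them on plate 524. The ratio was -1.07 for arterial against capillary and -1.54 for venous against capillary, on 4 of 4 plates. With the plates weighted equally the venous ratio was -0.80, and on plates 523 and 524 it was under 1.5-fold (-0.48 and -0.56). Plates 523 and 524 had more Sema3c and fewer venous cells. Tip cells were lower still, at 76.4 and 64.4 CPM on plates 521 and 522, a ratio to capillary of -2.54 pooled and -2.26 and -1.90 within those plates. Arterial against venous had no settled direction: it was 0.47 pooled, below 0 on 3 of 4 plates, 0.01 with a margin of 0.5 between scores, 0.72 with no margin and 1.15 with Leiden clusters. The 7 pericyte markers summed to 92.6 CPM in capillary, 27.6 in arterial, 16.7 in venous and 11.1 CPM in tip cells. The 260 capillary cells without a read of any of them had 629 CPM of Sema3c, against 638 CPM in all capillary cells.

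Counts among the 6 genes, chosen with earlier results of these data known, are set beside the shares of all genes. In arterial against venous cells, 2 of the 6 genes were 1.5-fold or more higher and 3 lower, where 18.0% of 12185 genes at 5 CPM or more were higher and 18.0% lower. In arterial against capillary cells 2 were higher and 4 lower, with 17.0% of all genes higher and 14.3% lower. Venous against capillary gave 0 higher and 3 lower, beside 16.0% and 12.3% of all genes. Tip against capillary gave 1 higher and 2 lower, beside 17.6% and 15.9%. Of the 2 lower, Unc5b was -0.99 pooled but 0.40 on plate 521 and -1.25 on plate 522.

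Ranking the cells by arterial minus venous score, in 10 bins of equal size, gave each gene's course between the venous and arterial ends. Unc5b pooled over plates went from 2.1 CPM in the venous end bin through 41.0 in bin 4 and 80.6 in bin 7. It reached 199 in the arterial end bin, with a dip to 9.9 in bin 5. When each plate was ranked alone, bin 5 was below bin 4 on plate 521 only (5.0 against 15.5 CPM). Sema3g stayed between 10.5 and 52.3 CPM up to bin 8, then reached 159 in bin 9 and 222 in bin 10. Sema3c pooled over plates went from 207 CPM at the venous end to 740.0 in bin 8 (68 capillary and 4 arterial cells) and 274 in bin 10 (110 arterial cells). The pooled bins mix plates of unlike Sema3c level. With each plate ranked on its own, the highest bin was bin 9 on plate 521 (314 CPM, from 180.1 in bin 1), bin 6 on plate 522 (289.6, from 110.3), bin 6 on plate 523 (905, from 430.0) and bin 7 on plate 524 (1015, from 562). From bin 9 to bin 10 it was lower on each plate, at 254, 128, 305 and 339 CPM in bin 10. Robo4 pooled over plates was highest in bin 4 (1031 CPM) and lowest in bin 10 (345 CPM), but plates of unlike Robo4 level are mixed there too. Ranked plate by plate, Robo4 was highest in bin 6 on plates 521 and 522 (1328 and 1326 CPM). On plates 523 and 524 it was highest in bin 4 (897 and 683 CPM). Bin 10 was the lowest on each plate, at 321, 453, 260 and 399.5 CPM. Sema6a went from 296 to 94.6 CPM and Plxnd1 from 112 to 56.1 CPM between the ends.

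**Figure D2:**
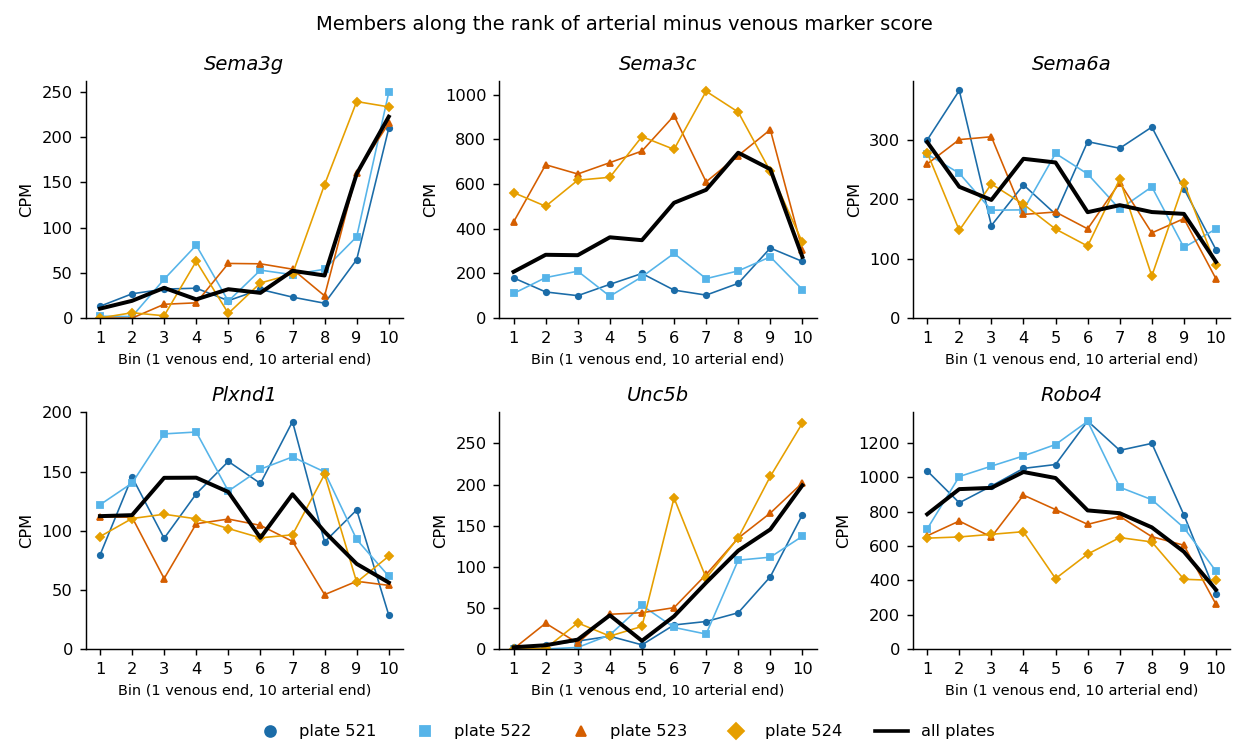
CPM of each gene in 10 bins of cells ranked by arterial minus venous marker score, for all plates ranked together (black) and each plate ranked on its own (coloured). Unc5b is higher toward the arterial end over several bins, Sema3g mainly in bins 9 and 10, and Sema3c is lower in bin 10 than in bin 9 on each plate.

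A like difference in Sema3c was seen inside the arterial class when it was split by a read of Mgp, the matrix Gla protein of larger arteries, a split chosen after the values were seen. Sema3c stood at 96.1 CPM in the 55 arterial cells with an Mgp read and 428 CPM in the 86 without. By plate it was 115, 1.7, 146 and 108 CPM with Mgp against 182, 262, 527 and 559.6 CPM without, lower with Mgp on each plate. Robo4 (201 against 433 CPM), Sema6a (44.3 against 147 CPM) and Plxnd1 (31.2 against 70.8 CPM) were also lower with Mgp. Unc5b stood at 141 against 225 CPM, but was higher with Mgp on plate 521 (165 against 96.6 CPM). Sema3g was 265 CPM with Mgp and 216 CPM without, above on all 4 plates.

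Single markers gave a view without the class limits, but each marker is in the lists behind the scores, so the views are not independent. The 282 cells with a read of Bmx had 155 CPM of Sema3g against 35.0 in the others (log2 ratio 2.11) and 135 against 45.0 CPM of Unc5b (1.56), both on 4 of 4 plates. The venous markers differed among themselves. In the 195 cells with a read of Nr2f2, the venous transcription factor, Unc5b (-2.43) and Sema3g (-1.79) were lower on 4 of 4 plates, as they were in the 668 cells with the amino acid carrier Slc38a5 (-1.67 and -1.44). With Vwf they were -0.98 (3 of 3 plates) and -0.11 (above 0 on 2 of 3). With the adhesion molecule Vcam1, Sema3g was higher (0.58, 4 of 4 plates) and Unc5b was -0.46 with 2 plates on either side of 0.

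Capillary and tip markers were also uneven. The 741 cells with Mfsd2a, the lipid carrier of barrier capillaries, had more Unc5b (88.0 against 30.4 CPM) and more Sema3c (522 against 273 CPM) on 4 of 4 plates. For Sema3c the log2 ratio was 0.93 pooled but 0.32, 0.51, 0.24 and 0.29 on plates 521 to 524, each under 1.5-fold. The 722 cells with Slc16a1, the monocarboxylate carrier, had less Unc5b (58.4 against 78.8 CPM, 4 of 4 plates), and Sema3c was 0.16, above 0 on 2 of 4 plates. Cells with Apln, the tip-cell peptide (200 cells), had more Plxnd1 and Robo4 and less Sema3c on both plates with a value, 521 and 522. The pooled ratios, which mix plates of unlike Sema3c level, were 0.77, 0.74 and -2.10. Within plates 521 and 522 they were 0.42 and 0.82 for Plxnd1, 0.39 and 0.64 for Robo4, and -0.93 and -1.42 for Sema3c. In the 380 cells with Angpt2, Robo4 was higher on 4 of 4 plates (0.68) and Plxnd1 on 3 of 4 (0.63, with -0.26 on plate 523). The Sema3c ratio with Angpt2 was -0.95 and -1.12 on plates 521 and 522 and nearer 0, at -0.13 and -0.15, on plates 523 and 524.

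Between plates, Sema3c stood apart from the other 5 genes. It was read at 169, 187, 664 and 679.6 CPM on plates 521 to 524, and in 41.0%, 44.5%, 76.8% and 79.8% of cells. The highest plate was 3.99-fold above the lowest, and Sema3c was the single gene of the 6 past 3-fold, where 10.3% of 12428 genes were. Unc5b was next, at 39.8, 47.7, 77.5 and 99.0 CPM (2.45-fold). Robo4 went the other way, at 974, 941, 680 and 566 CPM. Plxnd1 had 117, 138, 84.6 and 100.1 CPM, Sema6a 246, 207, 197 and 173 CPM, and Sema3g 47.3, 64.6, 60.8 and 80.7 CPM.

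**Figure D3:**
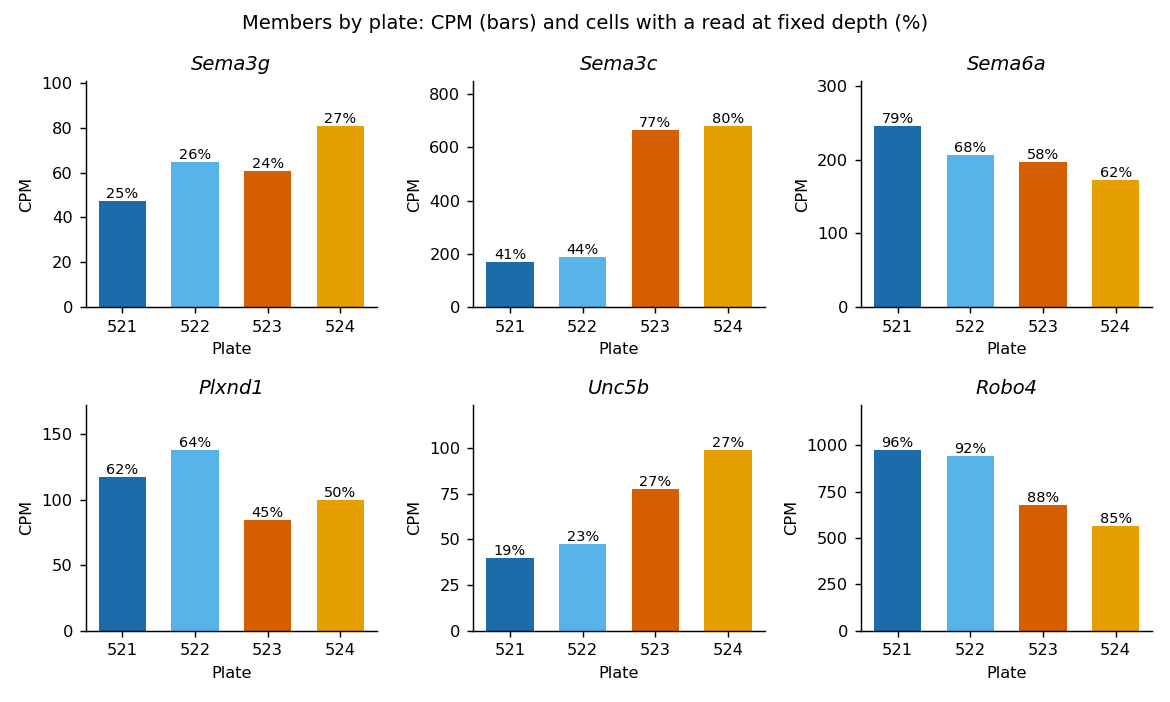
CPM of counts summed over the cells of each plate (bars), with the share of cells with a read at 100000 reads per cell above each bar. Sema3c is at 169 and 187 CPM on plates 521 and 522 and at 664 and 679.6 CPM on plates 523 and 524.

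The plates also differed in their mix of classes and in pericyte markers, so Sema3c was followed within both. Plates 523 and 524 were above plates 521 and 522, without overlap, in the arterial, capillary and venous classes and in the cells between classes (195, 230.1, 691 and 781 CPM). Tip cells on plates 523 and 524 numbered 3 and 5, too few to compare. Within arterial cells with an Mgp read the plates overlapped, as listed above. In the 913 cells without any read of the 7 pericyte markers, Sema3c stood at 167, 185, 713 and 692 CPM. In capillary cells without such a read (16, 47, 94 and 103 cells on plates 521 to 524) it stood at 462, 216, 775 and 700.2 CPM. The part of pericyte reads in the plate difference was not tested. Robo4 in the 913 cells stood at 1005, 949.8, 680.0 and 584 CPM.

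The partners of these genes were unequal too. Per kilobase of exon, the semaphorin co-receptor Nrp1 stood at 42.2 CPM over all cells, the Plxnd1 adaptor Gipc1 at 18.1, Plxna2 at 10.3, Nrp2 at 9.95, Plxna4 at 5.20 and Plxna1 at 4.27. Nrp2 was a venous and tip gene, at 328 CPM in venous, 197 in tip, 40.5 in capillary and 20.9 CPM in arterial cells (venous against capillary 2.99, on 4 of 4 plates). Nrp1 was lower in venous than in capillary cells (227 against 513 CPM, -1.17, 4 of 4 plates). Sema3e, the ligand of Plxnd1, was at 0.94 CPM over all cells and read in 3.62% of them. Sema3a was at 1.57 CPM (7.92% of cells), and Vegfa, which shares the neuropilins, at 1.46 CPM (2.70%).

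Ligands of Unc5b were found in different zones. Ntn1, netrin-1, stood at 66.0 CPM in arterial, 26.7 in venous and 10.4 CPM in capillary cells, and its arterial to capillary ratio was 2.56, above 0 on 4 of 4 plates. Flrt2 lay on the venous side, at 343 CPM in venous, 74.9 in capillary and 15.1 CPM in arterial cells (arterial against venous -4.42, 4 of 4 plates). Over all cells Flrt3 was at 1.45 CPM and Ntn4 at 3.20 CPM. Per kilobase of exon, Slit2 (0.12 CPM), Slit3 (0.068) and Robo1 (0.028) were all below the 149 of Robo4.

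A wider list of 105 guidance genes, 104 of them in the table, set these results in their pathway. Of 61 list genes at 5 CPM or more, 17 were 1.5-fold or more higher in arterial than in venous cells and 18 lower, 27.9% and 29.5% beside 18.0% and 18.0% of all genes (median ratio -0.05, against -0.02 for all genes). Of the 10 semaphorins 5 were higher and 3 lower, while of the 9 plexins and neuropilins none was higher and 5 were lower, to be read beside the same 18.0% each way. Sema3f, another secreted semaphorin, went with Sema3g (21.7 against 0.20 CPM, 4.24), and so did the ephrin Efnb2 (128 against 10.6 CPM, 3.47) and the kinase Fes (1.70). Plxnb2 (-4.46), Nrp2 (-3.91), Flrt2 and the small GTPase Rnd2 (-1.84) were on the venous side. Against capillary cells, arterial cells had 18 list genes higher and 15 lower of 56, 32.1% and 26.8% beside 17.0% and 14.3% of all genes (median 0.06). Venous cells had 14 higher and 12 lower of 55, 25.5% and 21.8% beside 16.0% and 12.3% (median 0.03).

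Of 54 list genes in tip against capillary cells, 21 were higher and 7 lower, 38.9% and 13.0% beside 17.6% and 15.9% of all genes (median 0.23, against 0.01 for all genes). Without the 6 genes, 20 of 48 were higher and 5 lower (41.7% and 10.4%). Among plexins and neuropilins 6 of 8 were higher and none lower, beside the same 17.6% and 15.9% (median 0.98). The pooled ratios set tip cells mostly of plates 521 and 522 against capillary cells mostly of plates 523 and 524, so values within plates 521 and 522 are given; by the mean of those within-plate ratios 20 list genes were higher and 8 lower. Beside Plxnd1, Plxnb2 was 4.87 and 2.45 there and Nrp2 2.58 and 1.60.

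Of the effectors that link plexins to the cytoskeleton, the GTPase gene Rnd3 was 3.09 pooled and 2.73 and 1.46 within those plates, and Rhod 1.17 pooled and 0.96 and 0.80 within them. Rnd1 was 2.58 pooled but 0.51 and 2.84, and Ablim3 2.26 pooled but 0.70 and 1.23. The kinase Fyn, 1.05 pooled, was 0.28 and 0.08 within the plates, under 1.5-fold on both. The oxidase Mical3 was lower, at -1.21 pooled and -0.99 and -1.99 within them.

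**Figure D4:**
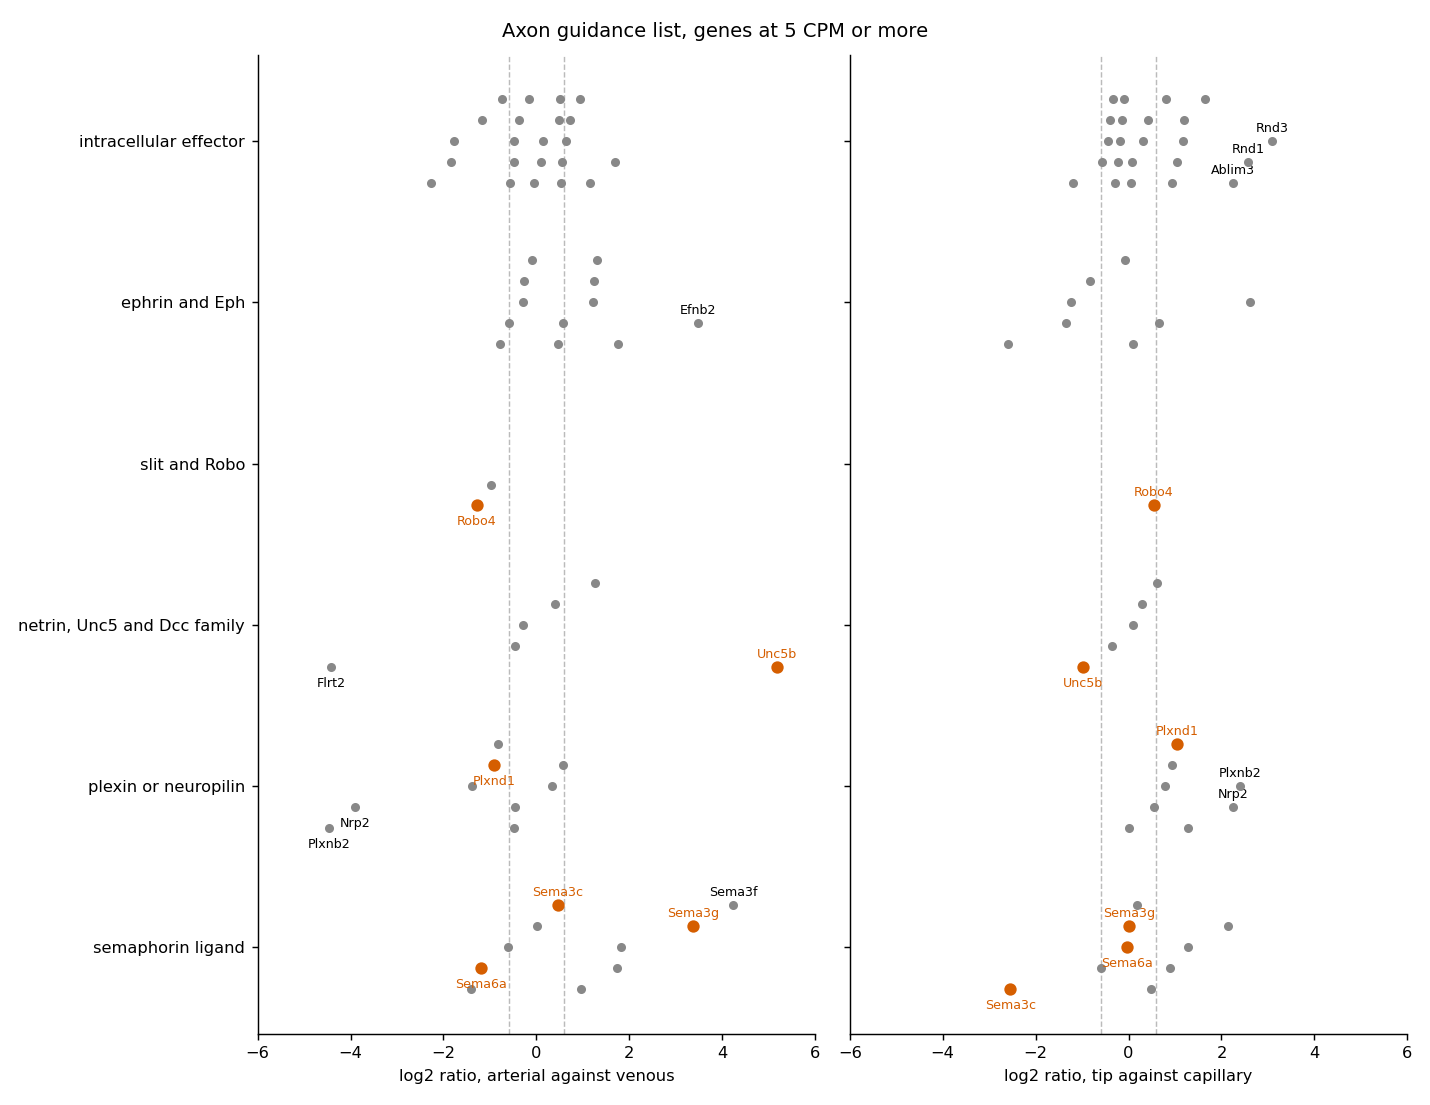
Log2 ratio of CPM for the guidance list genes at 5 CPM or more, by role, in arterial against venous cells (left) and tip against capillary cells (right); the 6 genes described here are in orange and dashed lines mark 1.5-fold. Unc5b (5.18) and Sema3g (3.38) lie far to the arterial side, Flrt2 and Nrp2 far to the venous side, and Sema3c (-2.54) is low in tip cells.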

How the data were processed

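The authors deposited whole-number counts of reads per gene and cell; the tools were TopHat2 2.1.1, Subread 1.4.6-p5, featureCounts and SAMtools 0.1.18 on GRCm38 (mm10), per the submitters' processing notes. Whether strand was used in counting is not given, and reads of genes that overlap on opposite strands could not be told apart. Counts were summed over cells and scaled to CPM; no cell was removed and no doublet caller was run. A count model such as a test between genotypes needs replicates, and the planned values by genotype could not be made because no column could be tied to a label. For scores and shares each cell was thinned to 100000 reads (seed 1); scores are means over markers of the z-score of log2(count + 1). Genes counted in a class comparison had 5 CPM or more on either side. Gene models are from GENCODE M21. Rank correlations were averaged over plates and named at a mean of 0.2 or more with over 0.1 on each plate; no gene passed for Sema3c, Sema6a or Plxnd1. List genes are named at 20 CPM or more on either side, 1.5-fold and 1 direction on every plate with a value; all listed partners are named. The 6 genes, the lists and the rules were chosen with earlier results of these data known. The scripts were tested on simulated data. Python 3.11.15, numpy 2.4.6, scipy 1.17.1 and scanpy 1.11.5 were used. Alternatives were other margins, depths, priors, scalings and filters, Leiden clusters in place of scores, and leaving out each plate.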

Additional observations from a re-analysis of the deposited data

How the results depend on the processing

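Of the 17 ratios at 1.5-fold or more, 250 of 272 values under the alternatives moved by less than 1 SD over plates, 21 moved further in the same direction or toward 0, and 1 changed sign: Sema3g in venous against capillary cells was 0.40 with Leiden clusters in place of scores. Leiden clusters also gave 3.07 for Unc5b in arterial against venous cells, -1.09 for Unc5b and -1.94 for Sema3c in venous against capillary cells, and -1.85 for Sema3c in tip against capillary cells. A margin of 0.5 between scores gave -1.74 for Sema6a in arterial against venous cells and -1.54 for Sema3c in arterial against capillary cells. Without plate 521, Unc5b in arterial against venous cells was 7.33. For Sema3c in tip against capillary cells the ratio was -1.78 with no margin, -3.14 with a margin of 0.5, -2.84 at 50000 reads per cell, -1.61 without the most abundant marker of each list, -2.02 without plate 521 and -3.05 without plate 524. For Plxnd1 it was 0.79, 1.42 and 0.94 with no margin, a margin of 0.5 and without those markers, 1.20 without plate 521 and 0.92 without plate 523. The mean of within-plate ratios, an alternative chosen after seeing the data, gave -0.80 for Sema3c in venous against capillary cells, -2.08 for Sema3c and 0.84 for Plxnd1 in tip against capillary cells. With no filter on low values 27 list genes were higher in arterial than venous cells, and at 2-fold 11 were lower. The SD over plates is a wide yardstick for Sema3g and Unc5b against venous cells, where plates with 0 to 5 venous reads rest on the added 1 CPM. There Sema3g in arterial against venous cells, counted as little moved, was 2.24 with Leiden clusters, 4.63 with a margin of 0.5 and 5.36 as the mean of plates. It is a narrow one for tip against capillary cells, where it comes from 2 plates. Of the 7 ratios under 1.5-fold, 27 of 112 values moved further than that SD. Sema3c in arterial against venous cells passed 1.5-fold with Leiden clusters (1.15) and with no margin (0.72), and Sema3g in tip against capillary cells went from 0.01 to -0.94 with a margin of 0.5 and to -0.91 with Leiden clusters. The causes were not tested. The tip class had 3 and 5 cells on plates 523 and 524. No paired analysis was possible because the columns carry no replicate numbers and no column has a genotype.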
